A study of Mus musculus with 24 samples.

Results

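The genes described here are 39 mouse cytochrome P450 genes of the Cyp2 family, those whose symbol is Cyp2 followed by the letter a, b, c, d, g or j and a number, without Cyp2c55 and Cyp2b10. They are 39 of the 40481 genes measured in each tissue: 4 Cyp2a, 4 Cyp2b, 14 Cyp2c, 8 Cyp2d, 1 Cyp2g and 8 Cyp2j genes. RNA sequencing was done on ileum and liver of C57BL/6 mice after removal of 75% of the small bowel, in 24 libraries, 3 for each of 8 groups. In each tissue the groups were Villin-Cre mice given GW3965, Villin-Cre mice given vehicle, floxed mice given GW3965 and floxed mice given vehicle. All mice carried Abca1 fl/fl alleles and had been resected. Villin-Cre mice also carried Cre recombinase under the Villin promoter, which acts in intestinal epithelium, so that the gene of ABCA1, a cholesterol exporter, was to be deleted in the intestine and kept in the liver. GW3965, an agonist of the liver X receptors, was dosed orally (1 mg/kg/day, on 2 days of each week) in the last 5 of 10 weeks after surgery. The vehicle was 0.5% carboxymethyl cellulose. The labels give neither age nor sex, and they do not tie libraries to animals, so a p-value here reflects how libraries vary, a variation that may be technical only.

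Cytochrome P450 enzymes of the Cyp2 family sit in the endoplasmic reticulum and oxidise drugs, steroids and fatty acids, using electrons that come from NADPH through P450 oxidoreductase. In hepatocytes many of them are controlled by the xenobiotic receptors CAR and PXR, by HNF4A, and, for the sex-biased members, by the pattern of growth hormone release acting through STAT5B. In the small intestine they are expressed in enterocytes and act on drugs and dietary compounds before these reach the portal blood. Mouse Cyp2 genes lie in clusters of close copies, several of which have no single human counterpart.

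The clusters matter for reading the values, because reads that fit several copies may have been shared, dropped or assigned to one of them. In GRCm38 the Cyp2a, Cyp2b and Cyp2g genes lie on chromosome 7, the Cyp2c genes on chromosome 19, the Cyp2d genes on chromosome 15 and the Cyp2j genes on chromosome 4. Coding sequences of Cyp2a4 and Cyp2a5 were 98.4% identical, those of Cyp2c40 and Cyp2c68 98.1%, of Cyp2a12 and Cyp2a22 97.0%, of Cyp2c65 and Cyp2c66 96.3%, of Cyp2c50 and Cyp2c54 95.2% and of Cyp2b9 and Cyp2b13 92.7%. Stretches of 150 bases of transcript, as long as 1 read, were searched in the other members, Cyp2c55 and Cyp2b10. Of all such stretches, 29.1% in Cyp2c40 also occurred in another of these genes, against 8.83% in Cyp2c68 and 4.55% in Cyp2c65. The share was 4.22% in Cyp2a4, 3.25% in Cyp2c50 and 0 in Cyp2d26, Cyp2d22, Cyp2j6, Cyp2b9 and Cyp2c29. Pseudogenes and other Cyp2 genes were not searched. The following 90-base stretches of coding sequence (GENCODE M21, 5′ to 3′) come from pairs whose values are set side by side below, with the bases that differ between the pair in capitals. They are coding positions 580 to 669 of Cyp2a4 (chr7:26307169-26315088, plus strand) and Cyp2a5 (chr7:26835305-26843548, plus strand), positions 241 to 330 of Cyp2c65 (chr19:39061015-39093944, plus strand) and Cyp2c66 (chr19:39113898-39187072, plus strand), positions 817 to 906 of Cyp2c50 (chr19:40089688-40113950, plus strand) and Cyp2c54 (chr19:40037940-40073827, minus strand), and positions 1037 to 1126 of Cyp2b9 (chr7:26173411-26210661, plus strand) and Cyp2b13 (chr7:26061497-26096197, plus strand). In each pair the stretch with the most differences is given, at 5, 15, 15 and 17 bases, so reads crossing these can be told apart. Over the whole aligned coding sequence the pairs differ at 23 of 1482, 54 of 1470, 70 of 1470 and 107 of 1473 bases. Other stretches are thus more alike.
Cyp2a4: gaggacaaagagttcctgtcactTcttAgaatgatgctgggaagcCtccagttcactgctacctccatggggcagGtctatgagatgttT
Cyp2a5: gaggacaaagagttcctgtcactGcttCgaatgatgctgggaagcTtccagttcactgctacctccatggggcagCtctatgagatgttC
Cyp2c65: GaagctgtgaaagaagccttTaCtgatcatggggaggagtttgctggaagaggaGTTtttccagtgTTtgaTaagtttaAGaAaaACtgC
Cyp2c66: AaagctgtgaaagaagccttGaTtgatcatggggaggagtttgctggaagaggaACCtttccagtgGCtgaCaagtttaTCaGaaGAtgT
Cyp2c50: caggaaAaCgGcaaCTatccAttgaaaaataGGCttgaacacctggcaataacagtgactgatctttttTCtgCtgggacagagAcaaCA
Cyp2c54: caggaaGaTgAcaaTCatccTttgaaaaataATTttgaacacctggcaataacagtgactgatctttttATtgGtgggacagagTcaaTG
Cyp2b9: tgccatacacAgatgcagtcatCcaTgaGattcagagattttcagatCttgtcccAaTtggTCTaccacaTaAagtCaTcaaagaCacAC
Cyp2b13: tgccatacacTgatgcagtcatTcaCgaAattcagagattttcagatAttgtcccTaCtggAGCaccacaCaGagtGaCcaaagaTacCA

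Sequence before the start site was available for 32 of the 39 members (34 promoters, RefSeq, GRCm38.p6, 250 bases upstream). The 9 letters CAAAGTCCA, a form of the HNF4A site, searched on both strands, were found in 6 of these 34 promoters (17.65%), against 126 of 32851 promoters of all genes (0.3835%). The 6 were Cyp2c40, Cyp2c65, Cyp2c67, Cyp2c68, Cyp2c69 and Cyp2c70, neighbours on chromosome 19 of which Cyp2c40, Cyp2c67, Cyp2c68 and Cyp2c69 are near-identical copies. The nuclear receptor core motif AGGTCA was found in 23.53% of the members' promoters and 14.02% of all, and its variant AGTTCA in 14.71% and 11.84%. For TTTATG the shares were 14.71% and 10.76%, for TTCNNNGAA, the form bound by STAT5, 5.882% and 7.02%, and for the palindromic HNF1 site 0 and 0.009132%. A match of letters is a description, and no binding was measured. The 4 promoters below belong to ileal Cyp2c genes and liver Cyp2b genes that are followed through the results, with CAAAGTCCA or AGGTCA in capitals. They are Cyp2c65 (chr19:39060756-39061005, plus strand), Cyp2c68 (chr19:39741102-39741351, minus strand), Cyp2b9 (chr7:26173159-26173408, plus strand) and Cyp2b13 (chr7:26061245-26061494, plus strand).
Cyp2c65 upstream: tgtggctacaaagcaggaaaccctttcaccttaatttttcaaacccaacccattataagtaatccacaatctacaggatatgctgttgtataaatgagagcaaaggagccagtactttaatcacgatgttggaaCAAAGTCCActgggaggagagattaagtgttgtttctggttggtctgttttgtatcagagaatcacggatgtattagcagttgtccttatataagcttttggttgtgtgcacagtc
Cyp2c68 upstream: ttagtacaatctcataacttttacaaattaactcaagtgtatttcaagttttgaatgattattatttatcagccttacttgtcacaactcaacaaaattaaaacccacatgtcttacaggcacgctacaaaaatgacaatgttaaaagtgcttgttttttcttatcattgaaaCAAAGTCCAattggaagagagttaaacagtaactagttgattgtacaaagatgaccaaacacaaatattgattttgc
Cyp2b9 upstream: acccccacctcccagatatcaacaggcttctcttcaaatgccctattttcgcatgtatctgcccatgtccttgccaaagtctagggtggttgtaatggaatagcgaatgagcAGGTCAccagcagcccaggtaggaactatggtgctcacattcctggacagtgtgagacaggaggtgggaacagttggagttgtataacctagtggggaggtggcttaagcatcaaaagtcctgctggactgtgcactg
Cyp2b13 upstream: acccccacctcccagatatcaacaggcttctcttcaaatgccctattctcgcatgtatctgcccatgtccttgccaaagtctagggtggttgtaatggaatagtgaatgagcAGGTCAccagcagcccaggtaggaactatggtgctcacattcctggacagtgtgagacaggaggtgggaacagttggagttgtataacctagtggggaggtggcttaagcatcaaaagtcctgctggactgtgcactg

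Ileal libraries held 17.001 to 24.2 M assigned reads and liver libraries 26.5 to 32.3 M. Values of a gene are in CPM, its reads per M assigned reads of the library, recovered from the deposited log2 values. Abca1 itself was at 53.7 to 54.0 CPM in Villin-Cre GW3965 ilea, 25.7 to 30.6 in Villin-Cre vehicle ilea, 251 to 438 in floxed GW3965 ilea and 54.2 to 59.9 in floxed vehicle ilea. In the liver it was at 377 to 382, 225, 464 to 479 and 327 to 342 CPM in the same order of groups. The villus gene Vil1 was at 2061 to 3779 CPM in ilea and 0.227 to 1.69 CPM in livers. Within 9 of 12 same-group pairs of ileal libraries and 10 of 12 of liver libraries, the typical squared difference of a gene (median-based) was 2.58 to 3.39 times that of Poisson counting, against 7.26 to 58.4 between groups. The mean over genes, which a few genes with large differences can raise, was 3.61 to 15.4 times in these ileal pairs and 3.16 to 25.2 times in these liver pairs. Floxed GW3965 replicate 3 stood apart among ilea and floxed GW3965 replicate 1 among livers. Calls were therefore also counted with close libraries averaged to 1 unit, which leaves 1 unit per group and 2 in the floxed GW3965 group of a tissue.

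In the ileum, 14 of the 39 members reached 0.5 CPM in at least 3 libraries and were tested: 5 Cyp2c, 7 Cyp2d and 2 Cyp2j genes. Of the 25 others, Cyp2a22 and Cyp2g1 had 0 reads in all 12 libraries, which allows up to 0.124 to 0.176 CPM (3 reads per library), and the highest single value was 0.853 CPM. No Cyp2a or Cyp2b gene was tested there, and the untested others were Cyp2c29, Cyp2c37, Cyp2c38, Cyp2c39, Cyp2c50, Cyp2c54, Cyp2c67, Cyp2c69, Cyp2c70, Cyp2d11, Cyp2j5, Cyp2j7, Cyp2j8, Cyp2j11, Cyp2j12 and Cyp2j13. Per kb of exon, Cyp2d26, a Cyp2d enzyme, led the members in Villin-Cre GW3965 ilea at 173 ± 0.672 CPM per kb (SD, n = 3), 63.3% of the members' total. In Villin-Cre vehicle ilea its share was 43.3%, in floxed GW3965 ilea 59.8% and in floxed vehicle ilea 18.6%. In floxed vehicle ilea Cyp2j6, a fatty acid epoxygenase, led instead, with 37.6% at 11.4 ± 0.939 CPM per kb. Bulk RNA gives these levels per tissue piece, and fewer cells of a type cannot be told apart from less RNA per cell.

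With GW3965, 3 of 5 tested Cyp2c and 3 of 7 tested Cyp2d genes rose in Villin-Cre ilea, and 3 of 5 and 6 of 7 in floxed ilea. In Villin-Cre ilea 7 of the 14 tested members rose and 0 fell, where 21.5% of all tested genes rose and 31.1% fell. In floxed ilea 9 rose and 0 fell, where 14.7% of all tested genes rose and 20.9% fell. For the counts of 0, limma also found 0 members lower at an unadjusted p under 0.05, and limma-voom found 0. The deposited log2 values gave 1 lower in Villin-Cre ilea, and no filter gave 1 lower in floxed ilea. Cyp2c40, Cyp2d9, Cyp2d12, Cyp2d34 and Cyp2d40 reached 0.5 CPM in fewer than 3 vehicle ilea and were tested only because GW3965 libraries also reached it, so their values for GW3965 depend in part on that filter. Of the 9 other members, 6 rose and 0 fell in each genotype. With close libraries averaged, 6 members rose in Villin-Cre ilea (Cyp2d26, Cyp2j6, Cyp2d22, Cyp2c66, Cyp2c65 and Cyp2d40), and 2 in floxed ilea (Cyp2d26 and Cyp2c65). The median log2 fold change of those 9 members was 1.39 in Villin-Cre and 1.10 in floxed ilea, beside -0.11 and -0.077 over all tested genes.

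Cyp2d26 had the highest of these levels. Its CPM values were 309, 311 and 308 in Villin-Cre GW3965 ilea, 26.5, 23.4 and 30.2 in Villin-Cre vehicle ilea, 121, 138 and 136 in floxed GW3965 ilea and 9.38, 10.6 and 10.4 in floxed vehicle ilea. The 4 groups did not overlap, and both GW3965 groups lay above both vehicle groups. The log2 fold change for GW3965 was 3.52 ± 0.083 (adjusted p = 8.74e-15) in Villin-Cre mice and 3.64 ± 0.083 (adjusted p = 1.63e-14) in floxed mice, and the difference between them was -0.12 ± 0.12 (adjusted p = 0.475). Cyp2d22, regarded as the mouse counterpart of the human drug-metabolising CYP2D6, was at 88.3, 92.0 and 98.2 CPM in Villin-Cre GW3965 ilea, 16.3, 16.6 and 17.2 in Villin-Cre vehicle ilea, 26.1, 23.3 and 31.6 in floxed GW3965 ilea and 12.5, 11.5 and 12.8 in floxed vehicle ilea. Its groups did not overlap either, but the rise with GW3965 was larger in Villin-Cre mice, at 2.44 ± 0.098 (adjusted p = 3.56e-12), than in floxed mice, at 1.10 ± 0.098 (adjusted p = 1.64e-07). The interaction was 1.34 ± 0.14 (adjusted p = 1.36e-06). Cyp2d40 was at 3.40, 3.59 and 3.51 CPM in Villin-Cre GW3965 ilea, 0.103, 0.175 and 0.161 in Villin-Cre vehicle ilea, 1.51, 1.07 and 2.05 in floxed GW3965 ilea and 0, 0.0588 and 0 in floxed vehicle ilea. All 6 GW3965 libraries and none of the vehicle libraries reached 0.5 CPM, so it was tested only through the groups where it was high. Its log2 fold changes of 2.63 in Villin-Cre and 1.95 in floxed mice are a description.

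**Figure D1:**
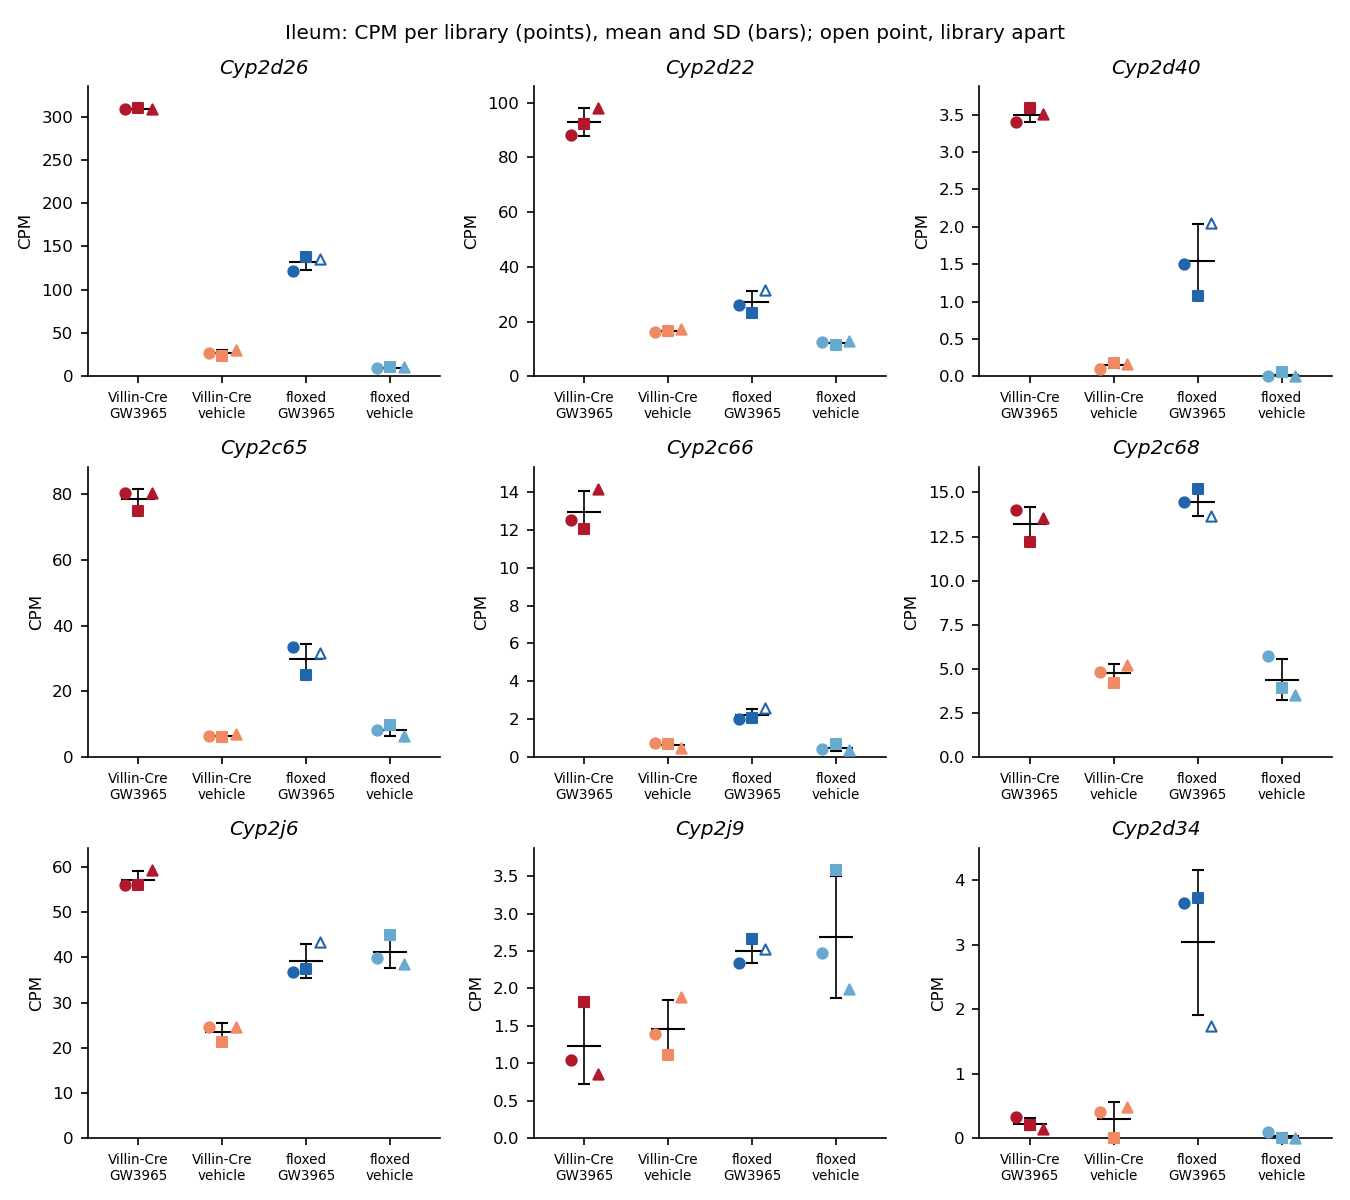
CPM of ileal members in each library (points), with the mean and SD of each group (bars, n = 3), for the 4 groups of ilea. Open points mark floxed GW3965 replicate 3, which stood apart, and Cyp2d26, Cyp2d22, Cyp2c65 and Cyp2c66 are highest in Villin-Cre GW3965 ilea.

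Among Cyp2c genes, Cyp2c65 and Cyp2c66, neighbouring members expressed in mouse gut, were also highest in Villin-Cre GW3965 ilea, followed by floxed GW3965 ilea. Cyp2c65 was at 80.2, 74.7 and 80.4 CPM in Villin-Cre GW3965 ilea, 6.47, 6.14 and 6.998 in Villin-Cre vehicle ilea, 33.4, 25.0 and 31.6 in floxed GW3965 ilea and 8.30, 9.94 and 6.41 in floxed vehicle ilea. The GW3965 groups lay apart from each other and above the vehicle groups, which overlapped with each other. The rise was 3.49 ± 0.13 (adjusted p = 2.18e-12) in Villin-Cre and 1.82 ± 0.13 (adjusted p = 1.81e-08) in floxed mice, with an interaction of 1.67 ± 0.19 (adjusted p = 3.95e-06). Cyp2c66 was at 12.5, 12.1 and 14.2 CPM in Villin-Cre GW3965 ilea, 0.771, 0.701 and 0.484 in Villin-Cre vehicle ilea, 2.04, 2.09 and 2.61 in floxed GW3965 ilea and 0.444, 0.706 and 0.368 in floxed vehicle ilea. Its 2 vehicle groups also overlapped. Its log2 fold changes for GW3965 were 3.55 ± 0.21 in Villin-Cre and 1.46 ± 0.21 in floxed mice, with an interaction of 2.09 ± 0.29 (adjusted p = 3.27e-05). Cyp2c68 behaved otherwise, with 14.0, 12.2 and 13.6 CPM in Villin-Cre GW3965 ilea, 4.83, 4.21 and 5.22 in Villin-Cre vehicle ilea, 14.4, 15.2 and 13.6 in floxed GW3965 ilea and 5.73, 3.94 and 3.52 in floxed vehicle ilea. Its GW3965 groups overlapped each other. Its rise was 1.39 ± 0.16 in Villin-Cre and 1.63 ± 0.16 in floxed mice, and the interaction did not pass the threshold (-0.24 ± 0.22 (adjusted p = 0.436)). Cyp2c40, which shares many read-length stretches with Cyp2c68, and Cyp2c23, an arachidonic acid epoxygenase, passed in no pairwise contrast, with means below 2 CPM in every ileal group.

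Some weakly expressed Cyp2d genes were highest in floxed GW3965 ilea. Cyp2d34 was at 0.331, 0.206 and 0.142 CPM in Villin-Cre GW3965 ilea, 0.411, 0 and 0.484 in Villin-Cre vehicle ilea, 3.65, 3.73 and 1.74 in floxed GW3965 ilea and 0.0988, 0 and 0 in floxed vehicle ilea. Floxed GW3965 libraries stood above all others, and they were the only 3 that reached 0.5 CPM. The gene was tested only through them, so its log2 fold changes, 2.68 for GW3965 in floxed ilea and -2.24 for Villin-Cre against floxed ilea with GW3965, are a description. The same holds for Cyp2d12, at 1.41 in floxed ilea, which 3 floxed GW3965 and 2 Villin-Cre vehicle libraries brought into the test. Cyp2d10 rose in floxed ilea by 0.85 ± 0.27 (adjusted p = 0.0225) and did not pass in Villin-Cre ilea. Cyp2d9, a male-biased steroid hydroxylase of mouse liver, did not pass for GW3965 in either genotype. These 4 genes stayed below 4 CPM in every ileal library and are 91.5 to 94.7% identical to their closest copies. Of their read-length stretches, 0 in Cyp2d34, 0.598% in Cyp2d12, 1.54% in Cyp2d9 and 6.40% in Cyp2d10 also occur in another member.

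**Figure D2:**
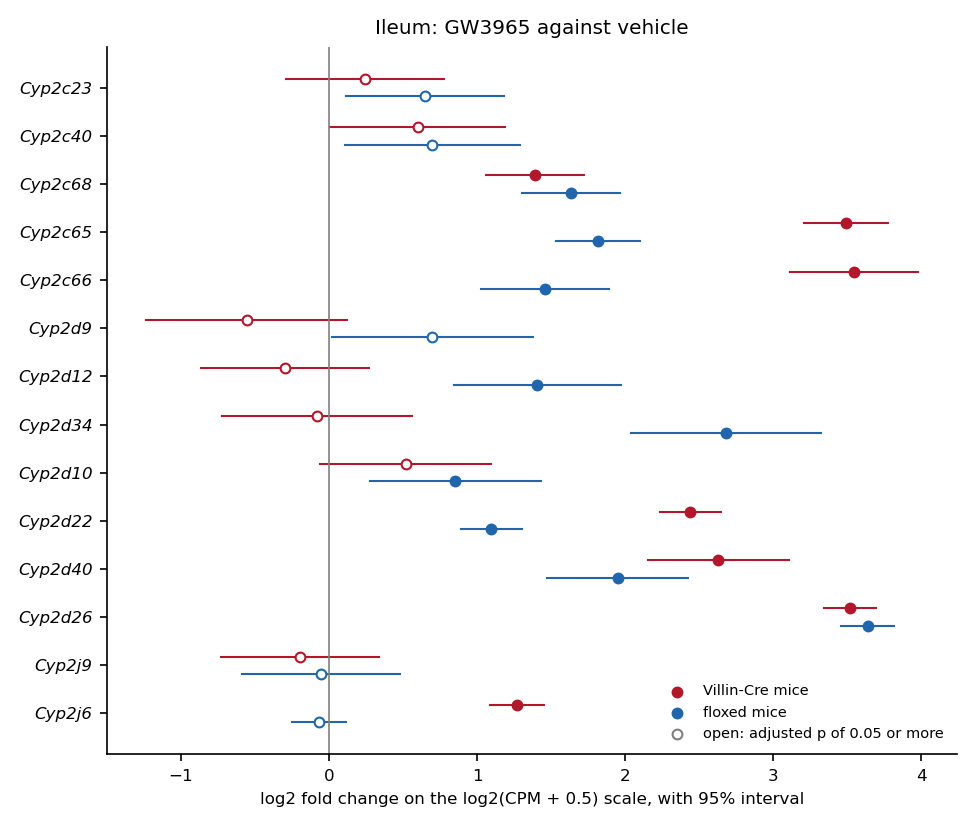
Log2 fold change of GW3965 against vehicle on the log2(CPM + 0.5) scale for the 14 tested ileal members, with 95% intervals, in Villin-Cre mice (red) and floxed mice (blue). Filled points have an adjusted p under 0.05 (limma), and Cyp2c65, Cyp2c66, Cyp2d22 and Cyp2j6 lie further right in Villin-Cre mice; Cyp2c40, Cyp2d9, Cyp2d12, Cyp2d34 and Cyp2d40 reached 0.5 CPM in fewer than 3 vehicle ilea.

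Both tested Cyp2j genes were lower in Villin-Cre than in floxed ilea without the drug. Cyp2j6 was at 56.1, 56.1 and 59.5 CPM in Villin-Cre GW3965 ilea, 24.7, 21.2 and 24.6 in Villin-Cre vehicle ilea, 36.8, 37.4 and 43.4 in floxed GW3965 ilea and 39.9, 44.9 and 38.5 in floxed vehicle ilea. Villin-Cre vehicle libraries were lowest, and the 2 floxed groups overlapped. GW3965 raised it by 1.27 ± 0.086 (adjusted p = 2.10e-09) in Villin-Cre mice and changed it by -0.068 ± 0.086 (adjusted p = 0.585) in floxed mice, with an interaction of 1.34 ± 0.12 (adjusted p = 3.86e-07). Villin-Cre against floxed mice gave -0.79 ± 0.086 (adjusted p = 1.98e-06) with vehicle and 0.54 ± 0.086 (adjusted p = 6.03e-05) with GW3965. Cyp2j9, an epoxygenase described in mouse brain, was at 1.04, 1.82 and 0.853 CPM in Villin-Cre GW3965 ilea, 1.39, 1.11 and 1.88 in Villin-Cre vehicle ilea, 2.34, 2.66 and 2.53 in floxed GW3965 ilea and 2.47, 3.59 and 2.00 in floxed vehicle ilea. All Villin-Cre libraries were below all floxed ones, at -0.83 ± 0.25 (adjusted p = 0.0109) with GW3965 and -0.69 ± 0.25 (adjusted p = 0.0379) with vehicle. The vehicle call of Cyp2j9 was lost after rescaling (adjusted p = 0.147), with no filter (adjusted p = 0.0909), in limma-voom (adjusted p = 0.0566), with the deposited log2 values (adjusted p = 0.0504) and without any 1 of Villin-Cre vehicle replicates 1 and 2 and floxed vehicle replicates 1 and 2 (adjusted p = 0.0680 to 0.175). With close libraries averaged neither gene passed.

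Between genotypes, 6 ileal members were higher and 4 lower in Villin-Cre than in floxed mice given GW3965, where 13.6% of all tested genes were higher and 38.3% lower. With vehicle 2 were higher (Cyp2d26 and Cyp2d22) and 2 lower (Cyp2j6 and Cyp2j9), where 9.61% were higher and 30.7% lower. Of the 4 lower with GW3965, Cyp2d34, Cyp2d12 and Cyp2d9 reached 0.5 CPM in fewer than 3 Villin-Cre ilea and were tested only with floxed libraries counted, and Cyp2j9 was not among these. Cyp2d26 gave 1.23 ± 0.083 (adjusted p = 4.06e-09) with GW3965 and 1.35 ± 0.083 (adjusted p = 3.78e-09) with vehicle. The interaction passed for 4 members in the positive direction (Cyp2c65, Cyp2c66, Cyp2d22 and Cyp2j6) and for 3 in the negative, the same Cyp2d34, Cyp2d12 and Cyp2d9, where 14.6% and 18.4% of all tested genes passed. Averaging close libraries left 4 higher and 0 lower with GW3965 (Cyp2d26, Cyp2d22, Cyp2c66 and Cyp2c65), none with vehicle and none for the interaction, with 7, 2 and 5 members at an unadjusted p under 0.05 in limma. With libraries rescaled to equal median gene ratios, the median of all genes between genotypes with vehicle moved from -0.18 to 0.036 and the members' split from 2 higher and 2 lower to 3 higher and 1 lower. Without floxed GW3965 replicate 3, 12 members were tested, and 3 were higher and 3 lower with vehicle.

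Markers of other cell types moved with these groups. The summed CPM of 20 enterocyte genes was 57335 to 58700.5 in Villin-Cre GW3965 ilea, 26866 to 27110.1 in Villin-Cre vehicle ilea, 33316 to 38338 in floxed GW3965 ilea and 19341 to 19986 in floxed vehicle ilea. That of 10 smooth muscle genes was 1356 to 1358, 8535 to 8847, 3287 to 4923 and 7947 to 7977 in the same order, and no gene of either list was at 0. With GW3965, 20 of 20 enterocyte genes rose in Villin-Cre and 17 rose and 2 fell in floxed ilea, at medians of 1.34 and 0.78, and 10 of 10 smooth muscle genes fell in both. Of 10 crypt genes 8 fell in Villin-Cre and 9 in floxed ilea. Of 12 stellate cell and fibroblast genes 11 fell in each genotype, and of 9 macrophage genes 8 fell in Villin-Cre and 7 in floxed ilea. Adipocyte genes rose for 4 of 8 in Villin-Cre and 8 of 8 in floxed ilea. Among all tested genes 21.5% rose and 31.1% fell in Villin-Cre ilea, and 14.7% and 20.9% in floxed ilea. The part of cell makeup in the members' changes was not tested.

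Genes that serve or control Cyp2 enzymes were also read in the ileum. Por, the oxidoreductase that feeds all microsomal P450s with electrons, was at 342, 332 and 321 CPM in Villin-Cre GW3965 ilea, 80.5, 78.1 and 85.8 in Villin-Cre vehicle ilea, 139, 149.8 and 143 in floxed GW3965 ilea and 98.4, 86.5 and 95.9 in floxed vehicle ilea. Its 4 groups did not overlap, and it rose by 2.02 ± 0.060 (adjusted p = 1.09e-13) in Villin-Cre and 0.62 ± 0.060 (adjusted p = 4.31e-07) in floxed mice. Of 10 genes of electron and haem supply, 5 rose and 2 fell with GW3965 in Villin-Cre ilea, among them Cyb5a (1.498) and Pgrmc1 (1.04), and 2 rose and 4 fell in floxed ilea, where Alas1, the first enzyme of haem synthesis, fell by 0.76 on the log2 scale. Of 26 regulators of Cyp2 genes, 15 rose and 4 fell in Villin-Cre and 13 rose and 3 fell in floxed ilea. They included Ppara (1.36 and 1.28) and the gene of PXR, Nr1i2 (0.45 in floxed ilea). Nr1i2 was higher with GW3965 in both genotypes. It was at 112.5, 112.2 and 112.0 CPM in Villin-Cre GW3965 ilea and 78.5, 79.6 and 82.0 in Villin-Cre vehicle ilea. In floxed ilea it was at 109, 111 and 103 CPM with GW3965 and 76.3, 79.6 and 79.6 with vehicle. Nr1i3, the gene of CAR, had means of 5.62 CPM in Villin-Cre GW3965 and 1.12 in Villin-Cre vehicle ilea. Its means were 2.65 CPM in floxed GW3965 and 4.58 in floxed vehicle ilea, so the order of the treatments differed between genotypes. Of 18 tested CYP1, CYP3 and CYP4 genes 12 rose and 2 fell in Villin-Cre and 9 rose and 2 fell in floxed ilea, with Cyp3a11, the main drug-oxidising Cyp3a of mouse liver, at 5.40 in Villin-Cre mice. Of 8 other Cyp2 genes 5 rose in Villin-Cre and 4 in floxed ilea, and Cyp2c55, left out of the members, gave 7.99 and 2.66. Of 11 genes of the arachidonic acid epoxide pathway 2 rose and 4 fell in Villin-Cre and 1 rose and 5 fell in floxed ilea. The shares over all tested genes were 21.5% rising and 31.1% falling in Villin-Cre ilea, and 14.7% and 20.9% in floxed ilea.

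In the liver 31 of the 39 members were tested: 4 Cyp2a, 2 Cyp2b, 12 Cyp2c, 8 Cyp2d, 1 Cyp2g and 4 Cyp2j genes. The 8 others (Cyp2b19, Cyp2b23, Cyp2c65, Cyp2c66, Cyp2j7, Cyp2j11, Cyp2j12 and Cyp2j13) did not exceed 0.507 CPM, and of them Cyp2c65 and Cyp2c66 reached at most 0.0985 CPM in any liver. Per kb of exon, Cyp2d26 led in Villin-Cre GW3965 livers at 356 ± 7.16 CPM per kb, in floxed GW3965 livers at 356 ± 37.1 and in floxed vehicle livers at 372 ± 5.59 (SD, n = 3 each). In Villin-Cre vehicle livers Cyp2a5, the mouse coumarin and nicotine hydroxylase, led at 352 ± 2.64 CPM per kb, 24.9% of the members' total. In floxed GW3965 livers the mean ± SD range of Cyp2d26 overlapped with that of Cyp2d10, next in order at 310.4 ± 14.8 CPM per kb. The SD of Cyp2d26 there includes replicate 1, at 715 CPM against 599 and 600.5 in its group mates.

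The liver library that stood apart, floxed GW3965 replicate 1, differed from its group mates in sex-biased members. Cyp2b9, a female-predominant steroid hydroxylase of mouse liver, was at 19.3, 15.4 and 17.4 CPM in Villin-Cre GW3965 livers, 58.0, 59.3 and 56.2 in Villin-Cre vehicle livers, 0.831, 269 and 259 in floxed GW3965 livers and 108, 112 and 111 in floxed vehicle livers. Its copy Cyp2b13 was at 0.480, 0.433 and 0.791, 2.24, 1.59 and 1.96, 0.113, 9.26 and 7.87 and 4.16, 3.18 and 3.06 CPM in the same order of groups. Floxed GW3965 replicate 1 was the lowest of all 12 livers for both genes, and the 2 other libraries of its group were the highest. Cyp2a4, a female-predominant steroid hydroxylase, was at 89.3, 84.5 and 90.1 CPM in Villin-Cre GW3965 livers, 143, 139.8 and 141 in Villin-Cre vehicle livers, 8.80, 174 and 166 in floxed GW3965 livers and 77.9, 79.7 and 77.1 in floxed vehicle livers, with the same library lowest. The male-biased Cyp2d9 went the other way, at 329, 205 and 204 CPM in floxed GW3965 livers against 143, 149 and 146 in floxed vehicle livers. In the same library Mup20 was at 1149.9 CPM against 129 and 131 in its group mates, and Elovl3 at 106 against 21.4 and 20.6, both male-biased. Cux2, a female-biased repressor, was at 3.25 against 17.8 and 20.2. Its means were 2.29 in Villin-Cre GW3965, 3.91 in Villin-Cre vehicle and 4.86 CPM in floxed vehicle livers, so there the group mates were the unusual ones. Cyp17a1, also listed as female-biased, went the other way, at 16.7 against 8.23 and 7.74 CPM. All 12 livers had the Y-linked Ddx3y at 48.6 to 71.9 CPM and Xist at 0.221 to 1.28 CPM. In all 12 ilea Ddx3y was at 20.6 to 36.6 CPM and Xist at 0.0872 to 0.925 CPM. By its Y-linked RNA, each library held RNA of male mice, floxed GW3965 replicate 1 of the liver included. Since all 4 groups share 1 estimate of the spread, this library widens the error of these genes in every liver contrast. Some main results that it moves are given with and without it, and the others only with it.

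**Figure D3:**
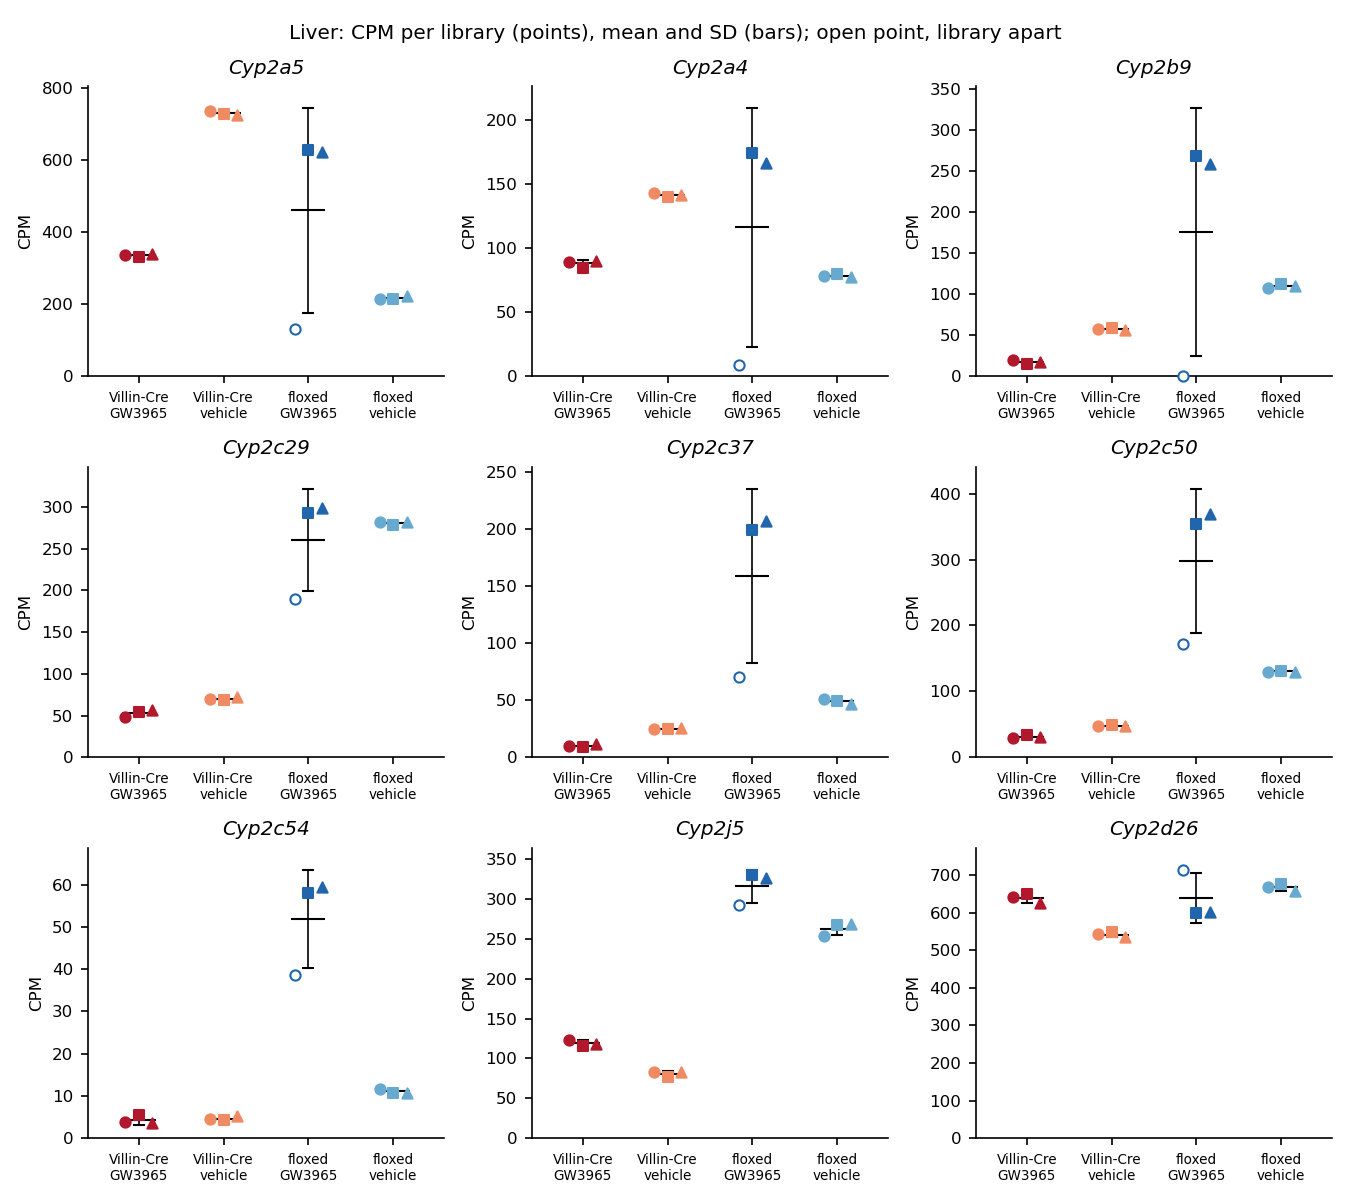
CPM of liver members in each library (points), with the mean and SD of each group (bars, n = 3), for the 4 groups of livers. The open point is floxed GW3965 replicate 1, which is far below its group mates for Cyp2b9, Cyp2a4 and Cyp2a5, and the Cyp2c genes and Cyp2j5 are lower in Villin-Cre livers.

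In the fit of all 12 livers, more of these genes passed between genotypes than with GW3965, as was so for all tested genes. Nearly all members that passed between genotypes were lower in Villin-Cre mice. With GW3965, 0 of the 31 tested members were higher and 23 lower in Villin-Cre than in floxed livers, where 40.9% of all tested genes were higher and 15% lower. With vehicle 1 was higher and 22 lower, where 45.1% were higher and 11.7% lower. The count of 0 was also 0 at an unadjusted p under 0.05 in limma, 0 in limma-voom, and 1 without floxed GW3965 replicate 1. All 12 tested Cyp2c genes were lower with GW3965 and 11 of 12 with vehicle, Cyp2c39 being the exception (adjusted p = 0.159). Of 8 Cyp2d genes 6 were lower in each treatment, and of 4 Cyp2j genes 3. Averaging close libraries left 7 lower with GW3965 (Cyp2c29, Cyp2c23, Cyp2c37, Cyp2j5, Cyp2c50, Cyp2c67 and Cyp2c54) and 4 with vehicle (Cyp2c29, Cyp2c23, Cyp2j5 and Cyp2c67). The members' medians were -0.90 with GW3965 and -0.63 with vehicle, beside 0.21 and 0.26 over all tested genes. Rescaling brought these all-gene medians to -0.0020 and 0.015, with 27 and 24 members lower and 0 and 1 higher. Cyp2g1 and Cyp2j8 reached 0.5 CPM in fewer than 3 Villin-Cre livers, and of the 29 others 22 were lower with GW3965 and 21 with vehicle.

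Cyp2c29, a CAR-inducible fatty acid epoxygenase, was at 48.5, 53.8 and 56.3 CPM in Villin-Cre GW3965 livers, 70.1, 68.2 and 71.7 in Villin-Cre vehicle livers, 190.3, 293 and 299 in floxed GW3965 livers and 283, 279 and 282 in floxed vehicle livers. Every Villin-Cre liver was below every floxed one, at -2.27 ± 0.13 (adjusted p = 1.71e-09) with GW3965 and -1.998 ± 0.13 (adjusted p = 1.02e-08) with vehicle on the log2 scale. Cyp2c37 was at 9.89, 8.97 and 11.9 CPM in Villin-Cre GW3965 livers and 25.1, 24.5 and 25.5 in Villin-Cre vehicle livers. In floxed livers it was at 70.5, 199 and 207 CPM with GW3965 and 51.1, 49.0 and 46.9 with vehicle. The 4 groups did not overlap. Its genotype difference was -3.74 ± 0.28 (adjusted p = 4.78e-08) with GW3965, -4.25 ± 0.076 without floxed GW3965 replicate 1, and -0.95 ± 0.28 (adjusted p = 0.0105) with vehicle. Cyp2c50 and Cyp2c54, close copies of Cyp2c37, followed it. Cyp2c50 was at 29.1, 33.9 and 31.0 CPM in Villin-Cre GW3965 livers, 48.2, 48.7 and 47.8 in Villin-Cre vehicle livers, 172, 354 and 369 in floxed GW3965 livers and 130.0, 131 and 130.0 in floxed vehicle livers. Cyp2c54 was at 3.76, 5.57 and 3.597 CPM in Villin-Cre GW3965 livers, 4.49, 4.35 and 5.21 in Villin-Cre vehicle livers, 38.6, 57.9 and 59.4 in floxed GW3965 livers and 11.7, 10.8 and 10.8 in floxed vehicle livers. Both were lowest in Villin-Cre and highest in floxed GW3965 livers, and the 2 Villin-Cre groups of Cyp2c54 overlapped. With GW3965 Cyp2c50 differed by -3.16 ± 0.20 and Cyp2c54 by -3.44 ± 0.17 between genotypes, and with vehicle by -1.43 ± 0.20 and -1.17 ± 0.17.

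**Figure D4:**
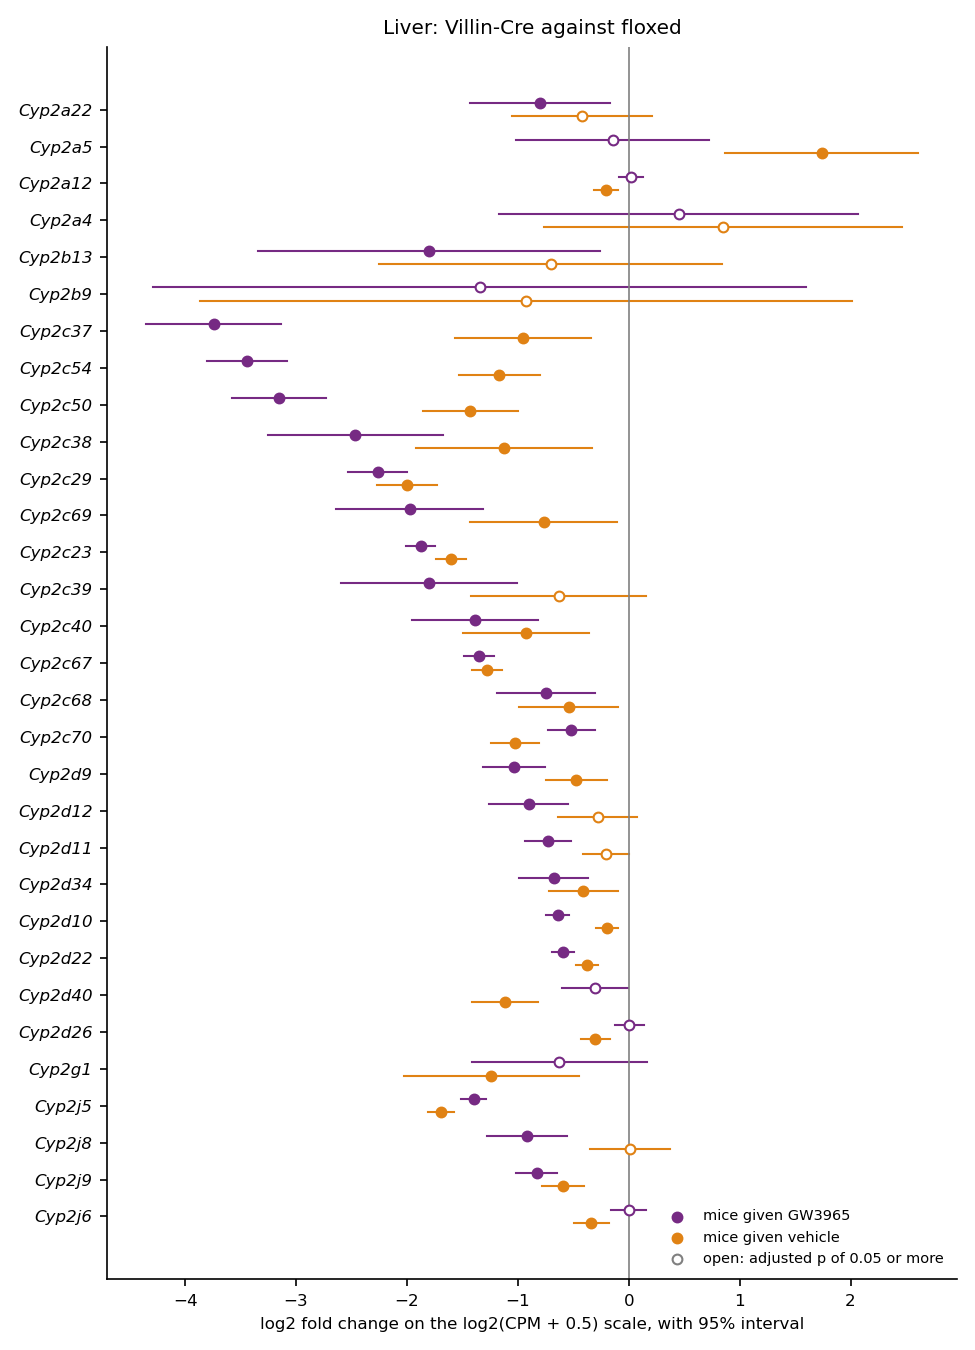
Log2 fold change of Villin-Cre against floxed livers on the log2(CPM + 0.5) scale for the 31 tested members, with 95% intervals, in mice given GW3965 (purple) and vehicle (orange). Filled points have an adjusted p under 0.05 (limma); 23 members are lower with GW3965, and the wide intervals of Cyp2b9, Cyp2b13 and Cyp2a4 rest on floxed GW3965 replicate 1.

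The remaining Cyp2c genes were also lower in Villin-Cre livers, except that Cyp2c39 did not pass with vehicle. Cyp2c23 differed by -1.88 ± 0.063 with GW3965 and -1.60 ± 0.063 with vehicle, Cyp2c67 by -1.35 ± 0.063 and -1.28 ± 0.063, and Cyp2c38 by -2.47 ± 0.37 (-3.14 without floxed GW3965 replicate 1) and -1.12 ± 0.37. Cyp2c70, which makes muricholic acids, the rodent-specific bile acids, was at 97.1, 105 and 111 CPM in Villin-Cre GW3965 livers, 85.2, 87.1 and 85.7 in Villin-Cre vehicle livers, 120.0, 175 and 158 in floxed GW3965 livers and 174, 177 and 177 in floxed vehicle livers. No Villin-Cre liver reached any floxed liver, and it was lower, at -0.52 ± 0.10 (adjusted p = 4.76e-04) with GW3965 and -1.03 ± 0.10 (adjusted p = 8.73e-07) with vehicle. Cyp2c69 was at 0.553, 0.650 and 0.755 CPM in Villin-Cre GW3965 livers, 0.641, 0.657 and 0.642 in Villin-Cre vehicle livers, 1.78, 6.60 and 5.23 in floxed GW3965 livers and 1.48, 1.31 and 1.57 in floxed vehicle livers, and shares 22.5% of its read-length stretches with other members. It gave -1.98 ± 0.31 with GW3965 and -0.77 ± 0.31 with vehicle, and Cyp2c68 gave -0.75 ± 0.21 (-1.12 without floxed GW3965 replicate 1) and -0.54 ± 0.21. The GW3965 groups of Cyp2c68 overlapped, with floxed GW3965 replicate 1 at 70.3 CPM against 66.4 to 74.8 in Villin-Cre GW3965 livers.

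Cyp2j5, the main epoxygenase of its subfamily in mouse liver and kidney, was at 123, 116 and 119 CPM in Villin-Cre GW3965 livers, 82.5, 77.4 and 82.8 in Villin-Cre vehicle livers, 292, 329 and 326 in floxed GW3965 livers and 253, 267 and 268 in floxed vehicle livers. The groups did not overlap, and it was lower in Villin-Cre mice, at -1.40 ± 0.054 (adjusted p = 3.94e-11) with GW3965 and -1.69 ± 0.054 (adjusted p = 1.40e-11) with vehicle. GW3965 raised it by 0.56 ± 0.054 (adjusted p = 2.52e-05) in Villin-Cre and 0.26 ± 0.054 (adjusted p = 0.00192) in floxed livers. Cyp2j6 was at 41.5, 43.2 and 40.3 CPM in Villin-Cre GW3965 livers, 40.3, 36.2 and 38.2 in Villin-Cre vehicle livers, 39.1, 39.9 and 46.3 in floxed GW3965 livers and 46.8, 46.6 and 51.9 in floxed vehicle livers. It was lower in Villin-Cre livers with vehicle, at -0.34 ± 0.072 (adjusted p = 0.00114), against -0.0013 ± 0.072 (adjusted p = 0.990) with GW3965, which became -0.24 (adjusted p = 0.00976) after rescaling. The interaction was 0.34 ± 0.10 (adjusted p = 0.0329). Cyp2j9 was lower in both treatments (-0.83 and -0.59). Cyp2j8 stayed at or below 1.06 CPM in every liver and gave -0.92 with GW3965, a value that depends in part on the filter. It reached 0.5 CPM in 2 Villin-Cre and 5 floxed livers. Cyp2g1, known from olfactory mucosa, did not exceed 1.75 CPM in any liver and reached 0.5 CPM in 5 floxed and 0 Villin-Cre livers.

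Cyp2d genes differed less. Cyp2d26 was at 640.5, 651 and 625 CPM in Villin-Cre GW3965 livers, 544, 548 and 534 in Villin-Cre vehicle livers, 715, 599 and 600.5 in floxed GW3965 livers and 668, 676 and 657 in floxed vehicle livers. With GW3965 the genotypes overlapped, at 0.0067 ± 0.060 (adjusted p = 0.936), a sign that turned to -0.23 and passed the threshold after rescaling, and with vehicle Villin-Cre livers were lower, at -0.30 ± 0.060 (adjusted p = 6.47e-04). Cyp2d10, a further abundant Cyp2d enzyme, was at 331, 334 and 317 CPM in Villin-Cre GW3965 livers, 371, 368 and 363 in Villin-Cre vehicle livers, 484, 521 and 529.9 in floxed GW3965 livers and 429, 404 and 429 in floxed vehicle livers. Its 4 groups did not overlap, with differences of -0.64 ± 0.046 with GW3965 and -0.19 ± 0.046 with vehicle. Cyp2d40 was at 18.1, 18.2 and 15.97 CPM in Villin-Cre GW3965 livers, 13.2, 10.8 and 12.4 in Villin-Cre vehicle livers, 28.4, 17.3 and 20.4 in floxed GW3965 livers and 27.5, 27.5 and 25.4 in floxed vehicle livers. Villin-Cre vehicle livers were lowest, at -1.11 ± 0.14 (adjusted p = 9.93e-06) against floxed vehicle livers. The other Cyp2d genes gave -1.04 (Cyp2d9), -0.90 (Cyp2d12), -0.73 (Cyp2d11), -0.68 (Cyp2d34) and -0.60 (Cyp2d22) on the log2 scale with GW3965, all past the threshold, and Cyp2d12 and Cyp2d11 did not pass with vehicle.

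Cyp2a5 was the member that was higher in Villin-Cre livers with vehicle. It was at 336, 332 and 340.1 CPM in Villin-Cre GW3965 livers, 736, 729 and 726 in Villin-Cre vehicle livers, 131, 629 and 624 in floxed GW3965 livers and 216, 216 and 224 in floxed vehicle livers. Villin-Cre vehicle livers were highest, at 1.74 ± 0.41 (adjusted p = 0.00215) against floxed vehicle livers, and the interaction was -1.88 ± 0.57 (adjusted p = 0.0332), or -2.64 ± 0.038 without floxed GW3965 replicate 1. With GW3965 the genotype difference was -0.15 ± 0.41 (adjusted p = 0.787), and -0.90 ± 0.028 (adjusted p = 2.43e-24) without floxed GW3965 replicate 1. Cyp2a12, a steroid hydroxylase, was at 240.2, 239 and 245 CPM in Villin-Cre GW3965 livers, 231, 219 and 243 in Villin-Cre vehicle livers, 255, 228 and 232 in floxed GW3965 livers and 267, 267 and 266 in floxed vehicle livers. Its values ranged from 219 to 267 CPM over the 12 livers, with -0.21 ± 0.050 (adjusted p = 0.00291) for Villin-Cre against floxed vehicle livers and 0.021 ± 0.050 (adjusted p = 0.752) with GW3965, a sign that turned to -0.22 and passed after rescaling.

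GW3965 itself changed fewer liver members. In Villin-Cre livers 4 rose and 2 fell, where 2.85% of all tested genes rose and 9.03% fell, and in floxed livers 14 rose and 2 fell, where 10.4% rose and 19.7% fell. Rescaling gave 6 higher and 1 lower in Villin-Cre and 14 higher and 0 lower in floxed livers. Averaging close libraries left none in either genotype, with 1 and 4 members at an unadjusted p under 0.05 in limma. In Villin-Cre livers Cyp2j5, Cyp2c23 (0.45 ± 0.063), Cyp2d40 (0.50 ± 0.14) and Cyp2d26 (0.24 ± 0.060) rose, and Cyp2c37 (-1.25 ± 0.28) and Cyp2d10 (-0.17 ± 0.046) fell. In floxed livers the largest rises were those of Cyp2c54 (2.15 ± 0.17 (adjusted p = 6.22e-07)), Cyp2c37 (1.53 ± 0.28 (adjusted p = 9.81e-04)) and Cyp2c69 (1.21 ± 0.31 (adjusted p = 0.00827)), and Cyp2a12 (-0.16 ± 0.050) and Cyp2j6 (-0.21 ± 0.072) fell. Floxed GW3965 replicate 1 enters these rises, at 38.6 CPM against 57.9 and 59.4 in its group mates for Cyp2c54. For Cyp2c37 it was at 70.5 against 199 and 207, and for Cyp2c69 at 1.78 against 6.60 and 5.23 CPM. The interaction passed for 6 members in the positive and 10 in the negative direction, where 10.2% and 9.7% of all tested genes passed, and for none with close libraries averaged, where 3 had an unadjusted p under 0.05. The negative ones included Cyp2c37 (-2.79 ± 0.40), Cyp2c54 (-2.28 ± 0.24) and Cyp2c50 (-1.73 ± 0.28), which rose with GW3965 in floxed livers and gave -1.25, -0.13 and -0.62 in Villin-Cre livers.

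Without floxed GW3965 replicate 1 the pooled spread no longer held this library, and the counts grew. In Villin-Cre livers 6 members then rose and 11 fell with GW3965 (6.69% and 20.1% of all tested genes), and in floxed livers 22 rose and 4 fell (15.6% and 23.5%). For Villin-Cre against floxed mice 1 member was higher and 27 lower with GW3965 (42.3% and 17.2%), and 2 were higher and 27 lower with vehicle (50.3% and 14%). The interaction passed for 6 and 20 (15.2% and 17.6%). Cyp2b9, Cyp2b13, Cyp2a4 and Cyp2a5 then fell with GW3965 in Villin-Cre and rose in floxed livers. Cyp2b9 gave -1.71 ± 0.053 (adjusted p = 3.52e-23) in Villin-Cre and 1.25 ± 0.059 (adjusted p = 1.78e-18) in floxed livers, where the fit of all 12 livers gave -1.71 ± 1.37 (adjusted p = 0.466) and -1.29 ± 1.37 (adjusted p = 0.522). Cyp2b13 gave -1.19 ± 0.19 and 1.20 ± 0.21, and Cyp2a4 -0.68 ± 0.037 and 1.12 ± 0.041, for Villin-Cre and floxed livers. Cyp2a5 gave -1.12 ± 0.025 in Villin-Cre and 1.52 ± 0.028 in floxed livers. Cyp2d9 rose in both, by 0.15 ± 0.034 and 0.48 ± 0.038. Between genotypes with GW3965, Cyp2b13 moved from -1.80 to -3.10, Cyp2c39 from -1.80 to -2.44 and Cyp2a22 from -0.80 to -1.32 when that library was left out, and the rise of Cyp2j8 in floxed livers no longer passed (0.51 ± 0.25 (adjusted p = 0.0987)). These floxed GW3965 values rest on 2 close libraries.

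Sums over a subfamily do not depend on how counted reads were split among its members. They miss reads that were dropped or assigned to genes left out, such as Cyp2c55, Cyp2b10 and pseudogenes. In these sums the tissues showed different patterns. In the ileum Cyp2d genes summed to 408 ± 4.84 CPM in Villin-Cre GW3965 libraries, 45.3 ± 3.46 in Villin-Cre vehicle, 167 ± 9.64 in floxed GW3965 and 23.8 ± 1.01 in floxed vehicle libraries (SD, n = 3 each). Cyp2c genes summed to 107 ± 5.40, 13.3 ± 0.716, 49.4 ± 3.14 and 14.9 ± 2.96 CPM in the same order, and Cyp2j genes to 59.5 ± 1.69, 25.4 ± 2.22, 42.8 ± 3.80 and 45.0 ± 4.40 CPM. The log2 ratios of group means for GW3965 against vehicle in Villin-Cre and floxed ilea were 3.17 and 2.81 for Cyp2d, 3.01 and 1.73 for Cyp2c, and 1.23 and -0.074 for Cyp2j, the floxed Cyp2j groups overlapping. With vehicle, the Cyp2c sums of Villin-Cre and floxed ilea overlapped (-0.16), while the Cyp2d sum was higher (0.93) and the Cyp2j sum lower (-0.83) in Villin-Cre ilea, with no overlap.

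In the liver Cyp2c genes summed to 403 ± 10.9 CPM in Villin-Cre GW3965 libraries, 447 ± 4.23 in Villin-Cre vehicle, 1565 ± 446 in floxed GW3965 and 1099.6 ± 11.5 in floxed vehicle libraries. Villin-Cre against floxed livers gave log2 ratios of -1.96 with GW3965 and -1.30 with vehicle for Cyp2c, and -1.13 and -1.33 for Cyp2j, with no overlap between groups. For Cyp2d they were -0.40 and -0.31. The Cyp2a sum was 679 ± 8.24, 1119 ± 12.6, 841 ± 378 and 584 ± 2.11 CPM in the same order of groups, and the Cyp2b sum 18.1 ± 1.82, 60.0 ± 1.44, 182 ± 157 and 114 ± 1.85 CPM. Both floxed GW3965 sums are spread widely by replicate 1. Without it, Villin-Cre against floxed livers given GW3965 gave -0.64 for Cyp2a and -3.92 for Cyp2b, and with vehicle the Cyp2a sum was higher (0.94) and the Cyp2b sum lower (-0.92) in Villin-Cre livers.

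**Figure D5:**
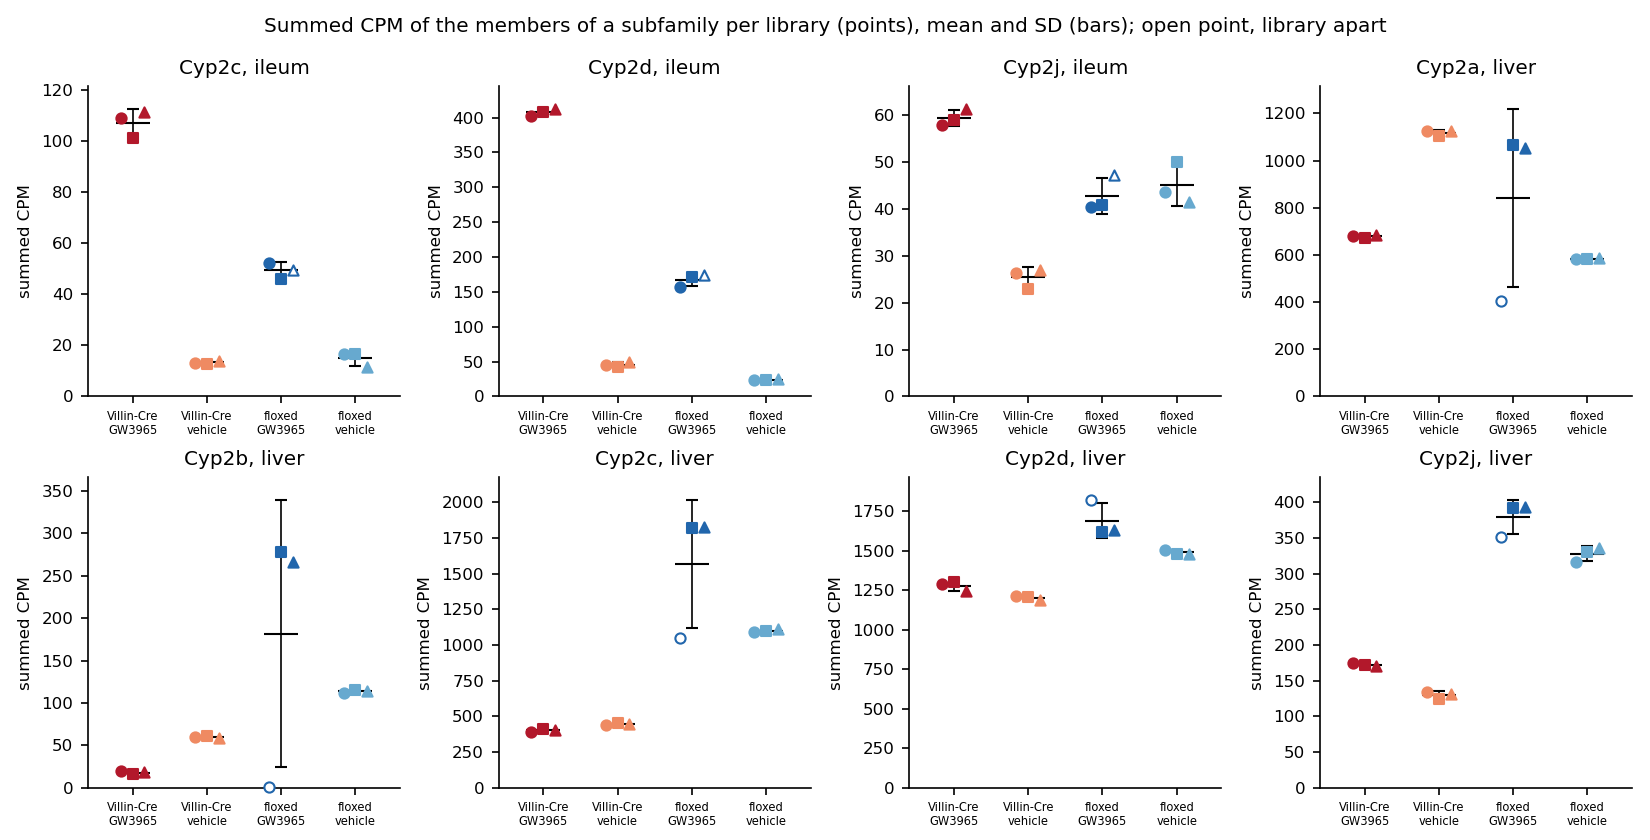
Summed CPM of the members of each subfamily in each library (points), with the mean and SD of each group (bars, n = 3), in ileum and liver. Ileal Cyp2d and Cyp2c sums are highest in Villin-Cre GW3965 libraries, and liver Cyp2c and Cyp2j sums are lower in both Villin-Cre groups than in both floxed groups; open points are the libraries that stood apart.

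Other gene groups of the liver moved with genotype too. The summed CPM of 15 pericentral hepatocyte genes, from the zone where many Cyp2c genes are known to be expressed, was 2627 to 2671 in Villin-Cre GW3965 livers, 3445 to 3503 in Villin-Cre vehicle livers, 8492 to 9018 in floxed GW3965 livers and 6031 to 6137 in floxed vehicle livers. Villin-Cre livers were lower for 12 of 15 of them in each treatment, Glul and Cyp2e1 included, and for 10 of 17 periportal genes with GW3965 and 11 with vehicle. Macrophage genes were higher for 10 of 12 with GW3965 and 12 of 12 with vehicle, stellate cell and fibroblast genes for 11 and 12 of 12, and bile duct genes for 9 of 10 in each. Among all tested genes 40.9% were higher and 15% lower with GW3965, and 45.1% and 11.7% with vehicle. Macrophage genes summed to 1459 to 1489, 2060.2 to 2095, 569 to 933 and 897 to 919.8 CPM in the same order of groups, and secreted hepatocyte proteins to 64692 to 66628, 59081 to 59584, 54766 to 67541 and 80105 to 82478 CPM. No gene of these lists was at 0 in all libraries of a liver group, and their part in the members' lower levels was not tested.

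Of 13 male-biased liver genes 2 were higher and 9 lower in Villin-Cre mice with GW3965, and 2 and 7 with vehicle. Of 15 female-biased ones 3 were higher and 9 lower with GW3965, and 4 and 7 with vehicle. Without floxed GW3965 replicate 1 the counts were 3 and 9, and 2 and 10, for male-biased genes, and 3 and 11, and 6 and 8, for female-biased genes. Of 25 tested CYP1, CYP3 and CYP4 genes 17 were lower with GW3965 and 13 with vehicle, among them the fatty acid hydroxylase genes Cyp4a10 (-1.76 and -1.30) and Cyp4f14 (-2.71 and -2.93). Among 27 regulators 15 were lower and 2 higher with GW3965, and 7 lower and 6 higher with vehicle. Nr1i3, the gene of CAR, was at 48.4, 51.9 and 50.8 CPM in Villin-Cre GW3965 livers, 81.8, 83.5 and 83.7 in Villin-Cre vehicle livers, 114, 140.2 and 134 in floxed GW3965 livers and 71.5, 76.3 and 74.8 in floxed vehicle livers. It fell with GW3965 in Villin-Cre livers (-0.72 ± 0.067 (adjusted p = 2.02e-05)) and rose in floxed livers (0.79 ± 0.067 (adjusted p = 1.27e-06)). Ghr, the growth hormone receptor gene, was lower in Villin-Cre livers, at -1.41 ± 0.060 (adjusted p = 1.16e-10) with GW3965 and -1.34 ± 0.060 (adjusted p = 3.49e-10) with vehicle. Of 10 genes of electron and haem supply 4 were higher and 5 lower with GW3965, and 4 higher and 3 lower with vehicle. Of 9 genes of the arachidonic acid epoxide pathway, 5 were higher and 1 lower in each treatment, and of 8 other Cyp2 genes 2 were higher and 2 lower with GW3965 and 4 lower with vehicle. Beside these genotype counts, 40.9% of all tested genes were higher and 15% lower with GW3965, and 45.1% and 11.7% with vehicle. Pancreatic acinar genes summed to at most 17.3 CPM in any liver and 15.4 CPM in any ileum, with Amy2a5 at 0 in all 12 ilea and all 12 livers.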

How the data were processed

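Ileum and liver RNA was extracted with RNeasy kits, depleted of ribosomal RNA with RiboErase, primed with random hexamers and sequenced on a NovaSeq (paired reads, 150 bases), per the labels' protocols. The submitters' processing notes name bcl2fastq, STAR 2.5.1a, Subread and featureCounts 1.4.6-p5 with GRCm38. Not given in the sources used here are the annotation, the strand setting, the log formula and the handling of reads with several matches. In GENCODE M21, Cyp2a4, Cyp2a22, Cyp2b13, Cyp2c29, Cyp2d9, Cyp2d10, Cyp2d11, Cyp2d12 and Cyp2j13 overlap other annotated genes, so their counts are uncertain.

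The authors deposited 1 table of log2 values per tissue. Their lowest value stood for 0 reads, and 100% of low values were whole multiples of 1 read within 0.05 reads, from which CPM and reads per library were recovered. Each table had 40757 entries, of which 276 repeated another and were dropped. The test took genes that reached 0.5 CPM in 3 libraries of the tissue (18656 in ileum, 17520 in liver). Limma 3.58.1 (R 4.3.3) was fitted to log2(CPM + 0.5) with 4 group means per tissue over its 12 libraries, a trended empirical Bayes prior and Benjamini-Hochberg adjustment over all tested genes at 0.05. Fold changes are on that scale and understate those of low genes. Errors are standard errors. Where 3 reads set a limit, it covers counting error only. Subfamily sums and levels per kb of exon have no test. The steps were tested on simulated data with independent libraries, for GW3965 against vehicle in Villin-Cre mice only. Libraries that stand apart or vary only technically were not simulated, so that test does not cover them.

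Groups and replicate numbers come from the sample labels. Same-numbered libraries of different groups did not deviate together (correlations -0.040 to 0.055 in ileum and -0.026 to 0.031 in liver). The members, the 18 gene lists and the tests were chosen with earlier results of these data known. Named with the value of every library are, per tissue, the 2 members of each subfamily with the highest mean (at least 1 CPM) and, per pairwise contrast, the 3 with the largest change among those past the threshold with a mean of at least 1 CPM in either group. Copies were compared by coding sequence, since no proteins were used here. From each list up to 4 genes with the smallest p could be named. Cyp2a4 and Cyp2d9 in liver, the other genes named for floxed GW3965 replicate 1, and Abca1, Vil1, Por, Nr1i3 and Ghr were chosen after their values were seen. The alternatives tried were no filter, libraries rescaled to equal median gene ratios, a pseudocount of 2 CPM, the deposited log2 values, limma-voom on recovered reads, only the groups compared, the replicate number as a block, close libraries averaged (median-based variance under 4 times Poisson) and leaving out each library.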

Additional observations from a re-analysis of the deposited data

Results flagged for a closer look

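The difference between genotypes in the effect of GW3965 (Villin-Cre minus floxed) passed the limma test of the difference itself (adjusted p under 0.05) for 7 members in the ileum and 16 in the liver. Values are log2 differences with the standard error where given.

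In the ileum the positive differences were those of Cyp2c66 (2.09 ± 0.29), Cyp2c65 (1.67 ± 0.19), Cyp2d22 (1.34 ± 0.14) and Cyp2j6 (1.34 ± 0.12). The negative ones were Cyp2d34 (-2.76 ± 0.43), Cyp2d12 (-1.70 ± 0.38) and Cyp2d9 (-1.25 ± 0.45), none of which exceeded 3.73 CPM in any ileum. These 3 reached 0.5 CPM in fewer than 3 Villin-Cre ilea, and Cyp2d34 was tested only through the 3 floxed GW3965 ilea where it was high, so their differences depend in part on the filter. Without floxed GW3965 replicate 2 or replicate 3 the counts were 4 positive and 1 negative.

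In the liver, Cyp2c37 (-2.79 ± 0.40), Cyp2c54 (-2.28 ± 0.24), Cyp2a5 (-1.88 ± 0.57) and Cyp2c50 (-1.73 ± 0.28) had the largest negative differences. They were followed by Cyp2j8 (-0.93), Cyp2d9 (-0.56), Cyp2d11 (-0.53), Cyp2d10 (-0.45), Cyp2c23 (-0.28) and Cyp2d22 (-0.22). Cyp2j8 did not exceed 1.06 CPM in any liver. It reached 0.5 CPM in 2 Villin-Cre and 5 floxed livers, so its difference depends in part on the filter. Positive differences were those of Cyp2d40 (0.81), Cyp2c70 (0.51), Cyp2j6 (0.34), Cyp2d26 (0.31), Cyp2j5 (0.29) and Cyp2a12 (0.23). Floxed GW3965 replicate 1 enters all of these liver values, and without it Cyp2a5 gave -2.64 and Cyp2d9 -0.33, and 6 members passed in the positive and 20 in the negative direction. With close libraries averaged, none passed in either tissue by limma, and 5 members in ileum and 3 in liver had an unadjusted p under 0.05.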

How the results depend on the processing

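Counts are members past the threshold, higher then lower, in the contrasts GW3965 against vehicle in Villin-Cre and in floxed mice, Villin-Cre against floxed with GW3965 and with vehicle, and the interaction. Calls that end when close libraries are averaged rest on a spread that may be technical only. Of 225 member values, rescaling kept the call of 205 and reversed 2, limma-voom kept 218, the pseudocount of 2 CPM 221, no filter 208 and the deposited log2 values 216; close averaging kept 127 and lost 98, with fewer units and a wider error by construction. A change of sign of a value past the threshold in neither fit was not counted. Rescaling reversed Cyp2d26 (-0.23) and Cyp2a12 (-0.22) in liver, Villin-Cre against floxed with GW3965. Over libraries left out in turn, values for GW3965 in floxed livers ran from -0.80 to 1.20 (Cyp2b13), -2.58 to 1.25 (Cyp2b9) and -1.00013 to 1.12 (Cyp2a4), past the threshold only without floxed GW3965 replicate 1. Cyp2a4 between genotypes with GW3965 ran from -0.95 without that library to 1.17. The cause was not tested.

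Rescaling moved subfamily log2 ratios in the ileum for GW3965 in Villin-Cre mice to 3.13 (Cyp2c) and 3.29 (Cyp2d). In the liver it moved them for Villin-Cre against floxed with vehicle to 0.65 (Cyp2a), -1.21 (Cyp2b), -1.58 (Cyp2c), -0.59 (Cyp2d) and -1.62 (Cyp2j), and with GW3965 to -0.64 (Cyp2d) and -1.37 (Cyp2j). It gave 1 lower with vehicle in ileum, and in liver 1 lower for GW3965 in Villin-Cre and 0 in floxed mice. The deposited log2 values gave ileum 1 lower for GW3965 in Villin-Cre mice and 4 higher and 1 lower with vehicle. No filter gave 1 lower for GW3965 in floxed ilea and in both liver genotypes, and 3 higher for the liver interaction. Limma-voom gave 1 lower with vehicle in ileum and for GW3965 in Villin-Cre livers. The fit of only the groups compared gave, in liver, 11 lower for GW3965 in Villin-Cre and 0 in floxed mice, and 2 higher with vehicle. Close averaging gave, in ileum, 2 higher for GW3965 in floxed mice, 0 lower with GW3965, and 0 and 0 with vehicle and for the interaction. In liver it gave 0 and 0 for GW3965 in either genotype and for the interaction, 7 lower with GW3965, and 0 higher and 4 lower with vehicle. Per kb of the longest transcript, Cyp2d26 was at 182 in Villin-Cre GW3965 ilea and 392 CPM in floxed vehicle livers.

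Leaving out each library in turn gave, in ileum, 7 to 9 and 0 to 0, 7 to 10 and 0 to 0, 6 to 6 and 2 to 5, 2 to 3 and 1 to 3, and 4 to 4 and 1 to 3. In liver it gave 2 to 6 and 0 to 11, 12 to 22 and 0 to 4, 0 to 1 and 21 to 27, 1 to 2 and 19 to 27, and 3 to 6 and 6 to 20, each upper end of the lower counts being without floxed GW3965 replicate 1. Without Villin-Cre GW3965 replicate 2 the liver interaction gave 3 and 6. The ileal subfamily ratios for GW3965 in Villin-Cre and floxed mice were 2.97 to 3.05 and 1.57 to 1.82 (Cyp2c), 3.12 to 3.23 and 2.78 to 2.86 (Cyp2d), and 1.16 to 1.27 and -0.15 to 0.0066 (Cyp2j). The liver ratios for Villin-Cre against floxed with GW3965 and vehicle were -0.64 to -0.10 and 0.93 to 0.95 (Cyp2a), -3.92 to -2.89 and -0.94 to -0.91 (Cyp2b), -2.18 to -1.83 and -1.30 to -1.29 (Cyp2c), -0.43 to -0.35 and -0.31 to -0.30 (Cyp2d), and -1.19 to -1.11 and -1.36 to -1.30 (Cyp2j). With the replicate number as a block, which the data do not show to pair the libraries, counts were 7 and 0, 10 and 0, 6 and 4, 2 and 2, and 4 and 3 in ileum, and 4 and 3, 13 and 2, 0 and 24, 1 and 22, and 6 and 9 in liver.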
